A study of Mus musculus with 7 samples.

Results

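Prospermatogonia homozygous for the H19Ter allele were compared with wild-type (WT) prospermatogonia across all genes of the deposited expression table. The comparison uses 4 of the 7 libraries of the series, WT replicates 1 and 2 and H19Ter replicates 3 and 4, and all 20643 genes of the table. The H19Ter allele carries a transcription terminator cassette at the entry to the H19/Igf2 imprinting control region (ICR) on chromosome 7, and it was made by gene targeting in 129S1 embryonic stem cells, with all chimeras from 1 cell line. The H19Ter+neo allele, from which it was derived by Cre, also keeps the Pgkneo selection cassette. Its 3 libraries (replicates 5 to 7) enter the estimate of spread and are given beside the largest changes. Chimeras were first crossed to 129S1 females with point mutations in the CTCF sites of the ICR, and mutant females were later bred with WT 129S1 males. For germ cell collection the lines were crossed with TgOG2, a transgenic line of B6 and CBA origin. The mutant fetuses were homozygous and carried its Pou5f1-driven EGFP transgene, by which germ cells were sorted from testes digested in pools. All libraries are total RNA from sorted male germ cells at 15.5 dpc (the source name of the labels gives 15). The litter, the resulting mix of strains and the sequencing run of each library are not stated by the sources used here. Nor are the strain of the WT fetuses and whether they carried the transgene. Differences in any of these cannot be told apart from genotype.

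Prospermatogonia are the fetal male germ cells that leave the mitotic cycle after colonising the testis and rest in arrest until after birth. During this arrest they switch off the pluripotency programme they share with primordial germ cells, start the piRNA pathway against transposons, and receive new DNA methylation, including the paternal imprints, from DNMT3A with its cofactor DNMT3L and from DNMT3C. Transcription runs through the H19/Igf2 ICR in these cells, and the terminator was placed to stop it. Nodal signalling, retinoic acid and FGF signals from the testis are known to bear on how long germ cells keep cycling and keep pluripotency genes on.

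Expression is given as log2 CPM, the read pairs of a gene relative to all read pairs counted in its library, in the order of the replicate numbers. Read pairs counted to genes were 45.1 and 45.9 M in the WT libraries and 51.2 and 37.5 M in the H19Ter libraries. Defining germ cell genes were high in all 4. The helicase gene Ddx4, specific to germ cells, was at 9.46 and 9.59 in WT and 9.23 and 9.27 in H19Ter. The summed level of the 27 male fetal germ cell markers was between 7930 and 8178 CPM, and 3 of the 27 rose and 7 fell. A gene was called at an adjusted p under 0.05 in limma, fitted to the 7 libraries and adjusted over all genes. Single genes are given with the log2 fold change, H19Ter minus WT, ± its standard error. Genes called below passed also with each of the 4 libraries left out in turn, unless the paragraph names the libraries without which the call was lost, with WT 1 and 2 and H19Ter 3 and 4 for the replicates. The paper calls the libraries biological replicates, but the sources do not tie them to separate litters. With 2 libraries in each group, p-values measure the spread between these samples, part of which may be technical.

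H19Ter libraries differed from WT in 2914 genes that rose (14.1% of 20643) and 2273 that fell (11.0%). Only 854 of the rises (4.14%) and 256 of the falls (1.24%) also passed with each library left out in turn, and WT replicate 2 had the largest effect, with 1102 rises and 306 falls without it. Rises were larger than falls. The median log2 fold change was 0.97 among called rises and -0.45 among called falls, and 1400 rises but 259 falls were of at least 2-fold. The median over all genes was -0.01. Over genes at a mean log2 CPM of at least 3, the libraries of 1 genotype differed by a median of 0.0882 in WT and 0.0765 in H19Ter, and a WT and an H19Ter library by 0.155 to 0.218.

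The direction of change followed the level of the gene. Of 4131 genes under a log2 CPM of 0, 20.4% rose and 2.64% fell, with a median log2 fold change of 0.42. Weakly expressed genes may have entered the table through the mutant libraries, which outnumber the WT ones, and the part of this was not tested. Of 5071 genes between 5 and 8, 6.96% rose and 21.1% fell, with a median of -0.10. For this reason lists are read beside the median of all genes in the same range of level or the share called among all genes at their level, which is the mean over the list's genes of the shares in their ranges. Library scaling moved the whole distribution by less than this. Setting all libraries to the same total moved the median of all genes to 0.07, at which 72.6% of calls were rises instead of 56.2%. Small shifts of highly expressed lists below are therefore relative to the deposited scaling.

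**Figure D1:**
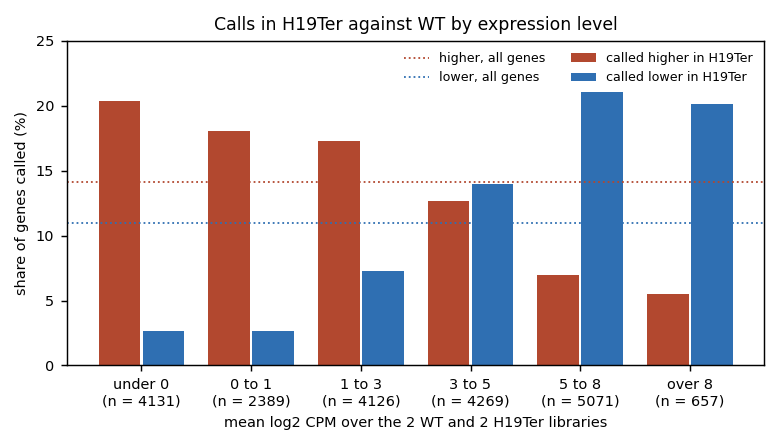
Share of genes called higher (red) or lower (blue) in H19Ter against WT, in percent of the genes in each range of mean log2 CPM over the 4 libraries (n below each range), with the shares over all genes as dotted lines. The share of rises falls from 20.4% under a log2 CPM of 0 to 5.48% over 8, and the share of falls goes from 2.64% to 20.1%.

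Among gene types, 15.4% of 15148 protein-coding genes rose and 13.1% fell. The shares were 11.9% and 6.99% of 2303 long noncoding RNAs, and 12.2% and 4.55% of 1142 processed pseudogenes. Of 173 small nucleolar RNAs, 1.16% rose and 3.47% fell. Chromosome 7, which carries the insertion, had 16.7% rises, close to the 16.6% on chromosome 19 and with 12.3% on the lowest. Its 11.3% falls lay within the range of the others, and its median log2 fold change was 0.01. Among rises that also passed with each library left out in turn, chromosome 7 did not have the highest share.

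Genes that drive cell division were lower in H19Ter as a group. In the list of the mitotic spindle, kinetochore and cytokinesis, 2 of 76 genes with a value rose, 38 fell and 36 did not pass, and the median log2 fold change was -0.27. Rises and falls were 2.63% and 50% of this list, against 8.09% and 19.4% of all genes at their level. Of the falls, 2 passed with each library left out in turn, and the list had 23 falls without WT replicate 1, 2 without WT replicate 2, 11 without H19Ter replicate 3 and 3 without H19Ter replicate 4. In voom on the recovered read pairs 21 fell. Its median lay between -0.31 and -0.23 in these fits. Plk1, the kinase that drives mitotic entry and spindle assembly, was at 4.52 and 4.61 in WT and 3.86 and 3.90 in H19Ter (log2 fold change -0.69 ± 0.11, limma adjusted p = 0.00304). Ncapd2, a subunit of condensin, the complex that compacts mitotic chromosomes, was at 7.62 and 7.64 in WT and 6.92 and 7.14 in H19Ter (log2 fold change -0.60 ± 0.08, limma adjusted p = 0.001). Both H19Ter libraries lay below both WT libraries for each. The other direction was taken by Anln, the scaffold of the cytokinetic ring, at 7.95 and 7.96 in WT and 8.55 and 8.45 in H19Ter (log2 fold change 0.55 ± 0.08, limma adjusted p = 0.0017). Cdc25b, a phosphatase that activates mitotic cyclin-dependent kinase, was at 3.21 and 3.18 in WT and 4.01 and 4.02 in H19Ter (log2 fold change 0.82 ± 0.13, limma adjusted p = 0.00235). Mki67, the proliferation antigen, was at 7.66 and 8.04 in WT and 6.99 and 6.61 in H19Ter (log2 fold change -1.05 ± 0.23, limma adjusted p = 0.0102), and was chosen after its values were seen, as were the other genes marked so below. The call was lost (limma adjusted p in brackets) for Mki67 without WT 2 and H19Ter 4 (0.108 and 0.0868).

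In the replication and licensing list, 1 of 55 genes with a value rose, 14 fell and 40 did not pass, with a median of -0.18. The share of falls was 25.5% against 17.5% of all genes at their level, and the number was 9 without WT 1, 1 without WT 2, 2 without H19Ter 3 and 1 without H19Ter 4, and 8 in voom. Mcm2, a subunit of the replicative helicase, was at 6.96 and 7.08 in WT and 6.47 and 6.25 in H19Ter (log2 fold change -0.66 ± 0.09, limma adjusted p = 0.00143). The 1 rise was Rfc3, a subunit of the clamp loader, at 4.49 and 4.42 in WT and 5.39 and 5.24 in H19Ter (log2 fold change 0.86 ± 0.10, limma adjusted p = 0.00064). Pold1, the catalytic subunit of polymerase delta, fell by less (-0.32, limma adjusted p = 0.00913). In the list of G1 cyclins, kinases and E2F factors 8 of 24 fell and none rose, or 33.3% falls against 16.0% at their level, but none of the 8 passed with each library left out in turn (6 without WT 1, 0 without WT 2, 3 without H19Ter 3 and 1 without H19Ter 4). E2f3, an activator of S phase genes, was at 5.28 and 5.34 in WT and 4.69 and 4.70 in H19Ter (log2 fold change -0.61 ± 0.12, limma adjusted p = 0.00567). Of 38 genes of homologous recombination and Fanconi repair 8 fell, a share of 21.1% that equals the 21.1% of all genes at a log2 CPM of 5 to 8, and the falls numbered 5 without WT 1, 1 without WT 2, 2 without H19Ter 3 and 1 without H19Ter 4. Among them was Fanci, a target of the Fanconi ubiquitin ligase, at 5.35 and 5.47 in WT and 4.68 and 4.53 in H19Ter (log2 fold change -0.81 ± 0.10, limma adjusted p = 0.00093). The inhibitors of the cycle did not move as 1 group. Cdkn1b, which encodes p27, was at 6.05 and 6.12 in WT and 5.59 and 5.43 in H19Ter (log2 fold change -0.57 ± 0.10, limma adjusted p = 0.00388). Cdkn1c, the imprinted p57 gene, was at 4.67 and 4.57 in WT and 5.01 and 4.92 in H19Ter (log2 fold change 0.35 ± 0.10, limma adjusted p = 0.0356), so these relatives passed in opposite directions. Leaving out single libraries ended the call (limma adjusted p in brackets) of Pold1 without WT 2, H19Ter 3 and H19Ter 4 (0.072, 0.0604 and 0.0567) and E2f3 without WT 2 (0.0566). Calls were lost (limma adjusted p in brackets) for Cdkn1c without WT 1, WT 2, H19Ter 3 and H19Ter 4 (0.068, 0.208, 0.17 and 0.0986).

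Histone genes of the replication-dependent clusters had the lowest median of the lists with at least 20 members. These genes are transcribed in S phase and their mRNAs mostly end in a stem-loop in place of a poly(A) tail, so that they are measured in total RNA. Of 58 such genes with a value 24 fell, none rose and 34 did not pass, with a median log2 fold change of -0.68. The falls were 41.4%, against 12.9% of all genes at their level. None of the 24 falls passed with each library left out in turn, and the number of falls was 7 without WT replicate 1, 0 without WT replicate 2, 6 without H19Ter replicate 3 and 1 without H19Ter replicate 4, while the median lay between -0.78 and -0.56. In voom on the recovered read pairs 2 of the 58 fell. Fitted to the WT and H19Ter libraries only, 2 rose and 41 fell. Of all 75 histone genes, the rises were the histone H4 gene H4f16 (0.86, limma adjusted p = 0.00225) and Hist1h2al (2.25, limma adjusted p = 0.0428), which was chosen after its values were seen. Cenpa, the histone H3 variant of centromeres, was at 5.89 and 6.03 in WT and 5.29 and 5.22 in H19Ter (log2 fold change -0.70 ± 0.12, limma adjusted p = 0.00303). No call was left (limma adjusted p in brackets) for Hist1h2al without WT 2, H19Ter 3 and H19Ter 4 (0.277, 0.0507 and 0.249).

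The 4 cluster histone genes with the smallest p are shown by the 120 bases before their annotated start (RefSeq, GRCm38.p6), since these genes moved together and their promoters share elements. Capitals mark CCAAT or TATAAA on either strand. H2bc23 lies on chr13:21810200-21810319 and H2ac20 on chr3:96220881-96221000, both on the reverse strand, and H3c4 on chr13:23575643-23575762 and H3c8 on chr13:23535298-23535417, both on the forward strand.
H2bc23: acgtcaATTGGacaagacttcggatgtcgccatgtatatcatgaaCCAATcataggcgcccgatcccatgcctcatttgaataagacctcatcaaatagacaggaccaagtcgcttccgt
H2ac20: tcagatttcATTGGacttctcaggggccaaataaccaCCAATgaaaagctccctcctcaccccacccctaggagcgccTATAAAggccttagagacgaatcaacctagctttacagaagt
H3c4: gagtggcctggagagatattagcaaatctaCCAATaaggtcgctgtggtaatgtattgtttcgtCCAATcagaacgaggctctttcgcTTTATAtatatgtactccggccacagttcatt
H3c8: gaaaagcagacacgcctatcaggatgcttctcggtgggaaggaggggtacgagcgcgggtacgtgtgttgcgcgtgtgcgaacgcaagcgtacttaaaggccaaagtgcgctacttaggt
In these stretches H2bc23, H2ac20 and H3c4 hold CCAAT, while H3c8 holds neither motif. Over windows from 250 bases before to 50 after the start, CCAAT on either strand stood in 83.3% of 54 windows of cluster histone genes and in 38.1% of the windows of all genes with a promoter in the table. TATAAA stood in 61.1% of the histone windows and 8.07% of all windows. The windows of genes that rose held CCAAT in 34.3% and those of genes that fell in 38.3%. TTTCGCGC, an E2F-type sequence, stood in 16.7% of the histone windows, in 11.1% of those of replication genes and in 0.6% of all windows.

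H2bc23 had 195 and 189 read pairs in WT and 0 in both H19Ter libraries, so that its level was at least 125-fold lower, with a floor of 3 read pairs over the H19Ter group (limma adjusted p = 0.00906). H2ac20, a histone H2A gene, was at 1.70 and 1.77 in WT and 0.19 and -0.87 in H19Ter (log2 fold change -2.07 ± 0.46, limma adjusted p = 0.0104), with 59 and 20 read pairs in H19Ter. H3c4, a histone H3 gene, was at 4.50 and 4.44 in WT and 3.48 and 3.81 in H19Ter (log2 fold change -0.83 ± 0.18, limma adjusted p = 0.011). H3c8, another histone H3 gene, was at 3.43 and 3.66 in WT and 2.40 and 2.12 in H19Ter (log2 fold change -1.28 ± 0.31, limma adjusted p = 0.0158). All 4 were lower in both H19Ter libraries than in either WT library. Coding sequences of cluster histones are near-identical, and only pairs aligned to 1 place were counted, so values of single genes are uncertain.  Single libraries decided the call (limma adjusted p in brackets) of H2bc23 without WT 2 and H19Ter 4 (0.0697 and 0.055) and H2ac20 without WT 2 and H19Ter 4 (0.0787 and 0.0831). The threshold was missed (limma adjusted p in brackets) by H3c4 without WT 1, WT 2 and H19Ter 3 (0.0526, 0.0716 and 0.0818) and H3c8 without WT 2, H19Ter 3 and H19Ter 4 (0.122, 0.052 and 0.102).

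Lists of Nodal signalling and pluripotency genes held more falls than rises in H19Ter. The falls were 47.4% and 45.8%, against 12.3% and 15.5% of all genes at their levels. These lists overlap, and Lefty2 is in both. Nodal is a TGF beta family ligand that acts through SMAD2 and SMAD3 with the cofactor FOXH1, and its targets include its own gene and its inhibitors Lefty1 and Lefty2. In the list of Nodal and activin signalling, 1 of 19 genes with a value rose, 9 fell and 9 did not pass, with a median of -0.37. The number of falls was 7 without WT 1, 3 without WT 2, 6 without H19Ter 3 and 4 without H19Ter 4. The ligand gene Nodal was at 3.62 and 3.64 in WT and 2.94 and 2.66 in H19Ter (log2 fold change -0.83 ± 0.14, limma adjusted p = 0.00373). Foxh1 was at 2.78 and 2.97 in WT and 1.68 and 1.67 in H19Ter (log2 fold change -1.20 ± 0.17, limma adjusted p = 0.0017). Lefty2 was at 4.82 and 5.30 in WT and 3.36 and 3.14 in H19Ter (log2 fold change -1.81 ± 0.29, limma adjusted p = 0.00269). Lefty1 was at 3.93 and 4.20 in WT and 2.31 and 2.34 in H19Ter (log2 fold change -1.74 ± 0.32, limma adjusted p = 0.00486). For all 4 genes both H19Ter libraries lay below both WT libraries. The 1 rise was Fst, which encodes the activin antagonist follistatin (0.71, limma adjusted p = 0.00871). Among receptors and transducers, Smad3 fell (-0.65, limma adjusted p = 0.0146), and Fst and Smad3 were chosen after their values were seen. Calls ended (limma adjusted p in brackets) for Lefty1 without WT 2 (0.0561) and Fst without WT 2 and H19Ter 4 (0.0749 and 0.0562). The call was lost (limma adjusted p in brackets) for Smad3 without WT 2, H19Ter 3 and H19Ter 4 (0.127, 0.057 and 0.0906).

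In the pluripotency list, 2 of 24 genes with a value rose, 11 fell and 11 did not pass, with a median of -0.38. The number of falls was 8 without WT 1, 1 without WT 2, 6 without H19Ter 3 and 3 without H19Ter 4. L1td1, an RNA-binding protein of pluripotent cells, was at 5.11 and 5.56 in WT and 4.20 and 3.86 in H19Ter (log2 fold change -1.30 ± 0.24, limma adjusted p = 0.00453). Sox2, a core pluripotency factor chosen after its values were seen, was at 5.93 and 6.12 in WT and 5.52 and 5.40 in H19Ter (log2 fold change -0.57 ± 0.15, limma adjusted p = 0.0198). The falls did not extend to the whole core. Pou5f1, whose promoter also drives the transgene used for sorting, was at 8.01 and 8.09 in WT and 7.96 and 7.96 in H19Ter (log2 fold change -0.08 ± 0.09, limma adjusted p = 0.536). Nanog, chosen after its values were seen, was at 4.95 and 5.36 in WT and 4.96 and 4.91 in H19Ter (log2 fold change -0.22 ± 0.14, limma adjusted p = 0.285). Neither passed the test. The rises were those of Klf4 and Tbx3. Klf4, a Kruppel-like factor, was at 4.0 and 3.66 in WT and 5.22 and 5.09 in H19Ter (log2 fold change 1.32 ± 0.13, limma adjusted p = 0.00023). Tbx3, a T-box repressor chosen after its values were seen, was at -1.45 and -0.55 in WT and 0.82 and 0.84 in H19Ter (log2 fold change 1.82 ± 0.34, limma adjusted p = 0.00513). In the list of primordial germ cell specification, 1 of 15 genes with a value rose, 8 fell and 6 did not pass, with a median of -0.45. The falls were 53.3%, against 17.4% of all genes at their level. The number of falls was 7 without WT 1, 2 without WT 2, 7 without H19Ter 3 and 2 without H19Ter 4. Ifitm3, also called fragilis, which marks early germ cells, was at 4.78 and 4.96 in WT and 3.71 and 3.79 in H19Ter (log2 fold change -1.12 ± 0.18, limma adjusted p = 0.00246). Prdm14, a regulator of germ cell specification and of the pluripotent state, was at 3.91 and 4.15 in WT and 3.15 and 3.16 in H19Ter (log2 fold change -0.87 ± 0.17, limma adjusted p = 0.0066). Kit, the receptor of stem cell factor, was chosen after its values were seen and was at 5.91 and 6.19 in WT and 5.42 and 5.25 in H19Ter (log2 fold change -0.72 ± 0.17, limma adjusted p = 0.0132). Leaving out single libraries ended the call (limma adjusted p in brackets) of L1td1 without WT 2 (0.0585) and Sox2 without WT 2, H19Ter 3 and H19Ter 4 (0.159, 0.063 and 0.12). Calls were lost (limma adjusted p in brackets) for Prdm14 without WT 2 (0.073) and Kit without WT 2 and H19Ter 4 (0.128 and 0.0945).

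**Figure D2:**
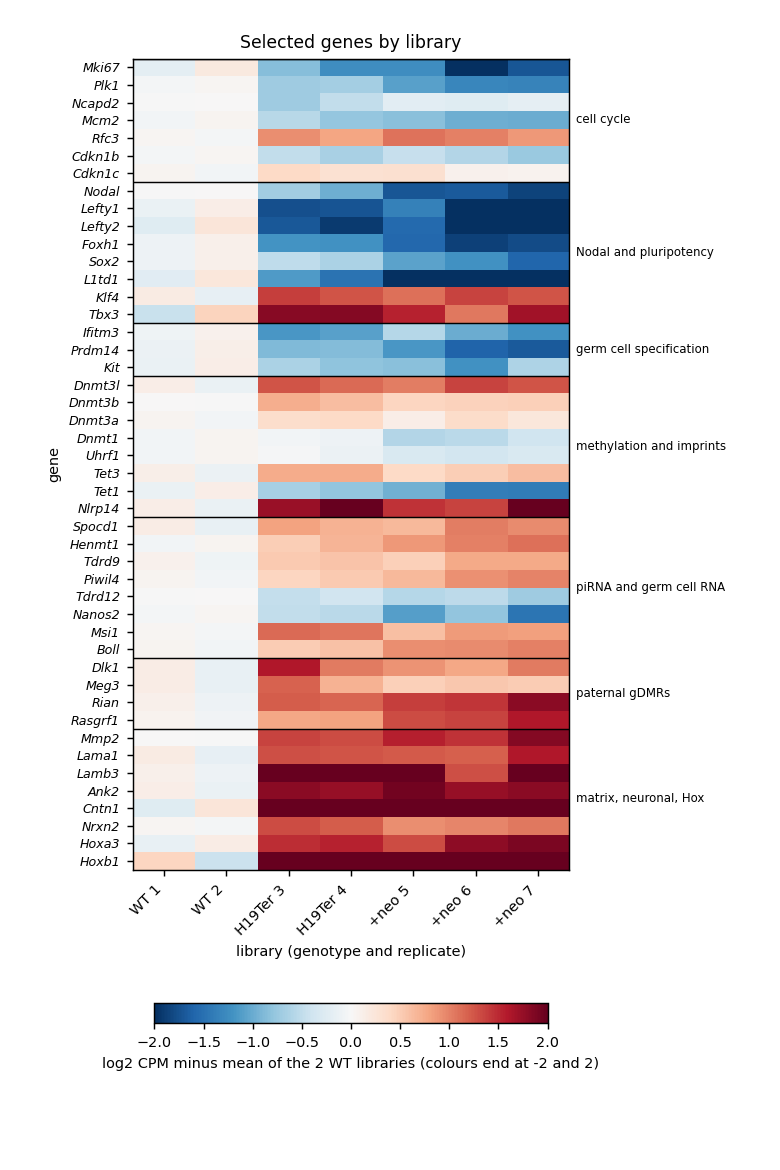
Log2 CPM of selected genes in each of the 7 libraries (columns) minus the mean of the 2 WT libraries, as colours that end at -2 and 2, grouped by function. The genes were chosen after their values were seen. Nodal, Lefty1, Lefty2 and Foxh1 are lower and Dnmt3l, Spocd1 and Dlk1 higher in both H19Ter libraries than in both WT libraries, and H19Ter+neo libraries are shown as values only.

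Dnmt3l, Dnmt3b and Dnmt3a of the de novo DNA methylation machinery rose, while Dnmt1 and Uhrf1 of maintenance methylation did not pass. Of 13 DNA methyltransferases and partners 4 rose and 2 fell, and with each library left out in turn 2 and 0 passed. The list had 30.8% rises and 15.4% falls, against 8.29% and 18.7% of all genes at their level. Dnmt3l, the catalytically inactive cofactor that prospermatogonia need for paternal imprints, was at 5.43 and 5.16 in WT and 6.56 and 6.43 in H19Ter (log2 fold change 1.20 ± 0.12, limma adjusted p = 0.00033), and both H19Ter libraries stood above both WT libraries. It is ENSMUSG00000000730 on chromosome 10 of GRCm38, from 78041947 to 78063622. Dnmt3b was at 3.86 and 3.84 in WT and 4.58 and 4.46 in H19Ter (log2 fold change 0.67 ± 0.09, limma adjusted p = 0.00138). Dnmt3a, the enzyme of paternal imprint establishment and the most abundant of the de novo enzymes, was at 8.26 and 8.17 in WT and 8.57 and 8.62 in H19Ter (log2 fold change 0.38 ± 0.08, limma adjusted p = 0.00856). Dnmt1, the maintenance enzyme, was at 7.74 and 7.86 in WT and 7.74 and 7.70 in H19Ter (log2 fold change -0.08 ± 0.08, limma adjusted p = 0.464). Its recruiter Uhrf1 was at 5.80 and 5.93 in WT and 5.84 and 5.74 in H19Ter (log2 fold change -0.07 ± 0.08, limma adjusted p = 0.533). Both were chosen after their values were seen. The falls in this list were Pcna (-0.54, limma adjusted p = 0.0262), the replication clamp, and Hells (-0.33, limma adjusted p = 0.0298), a remodeller needed for methylation of repeats. Of the TET enzymes, which oxidise methylcytosine, Tet3 was at 5.69 and 5.46 in WT and 6.31 and 6.32 in H19Ter (log2 fold change 0.74 ± 0.10, limma adjusted p = 0.00109). Tet1 was at 8.95 and 9.21 in WT and 8.42 and 8.28 in H19Ter (log2 fold change -0.73 ± 0.14, limma adjusted p = 0.00535), so the pair changed in opposite directions. No call was left (limma adjusted p in brackets) for Dnmt3a without WT 2 and H19Ter 4 (0.0858 and 0.0668) and Pcna without WT 2, H19Ter 3 and H19Ter 4 (0.213, 0.0736 and 0.142). Single libraries decided the call (limma adjusted p in brackets) of Hells without WT 2, H19Ter 3 and H19Ter 4 (0.244, 0.11 and 0.128) and Tet1 without WT 2 (0.0658).

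Of 15 imprint protection factors 3 rose and 4 fell, of which 1 and 0 passed with each library left out in turn. Nlrp14, a germ cell protein of the NLR family, was at 3.58 and 3.30 in WT and 5.17 and 5.43 in H19Ter (log2 fold change 1.86 ± 0.23, limma adjusted p = 0.000858). Zfp445, a KRAB zinc finger protein that binds methylated imprinting control regions, was at 6.95 and 7.11 in WT and 6.71 and 6.71 in H19Ter (log2 fold change -0.33 ± 0.08, limma adjusted p = 0.0132). Trim28, the corepressor that such proteins recruit, was chosen after its values were seen and was at 9.0 and 9.11 in WT and 8.78 and 8.64 in H19Ter (log2 fold change -0.34 ± 0.08, limma adjusted p = 0.0138). Of 384 KRAB and other Zfp genes 28 rose and 67 fell, or 7.29% and 17.4% against 12.3% and 14.0% at their level, but 39 rose and 37 fell with all libraries at the same total and 35 and 43 with median ratios. The falls numbered 47 without WT 1, 9 without WT 2, 18 without H19Ter 3 and 24 without H19Ter 4. Those with the smallest p were Zfp953 (-0.85, limma adjusted p = 0.00075) and Zfp729a (-0.67, limma adjusted p = 0.00139). Among histone methylation enzymes, Kdm5d, the Y-linked H3K4 demethylase, was at 6.32 and 6.35 in WT and 5.78 and 5.84 in H19Ter (log2 fold change -0.52 ± 0.08, limma adjusted p = 0.00231). Kdm1b, the H3K4 demethylase needed for maternal imprints in oocytes, was at 7.59 and 7.54 in WT and 8.06 and 8.04 in H19Ter (log2 fold change 0.48 ± 0.09, limma adjusted p = 0.0047). Setd2, which places H3K36me3, fell (-0.29, limma adjusted p = 0.0188), and the other fall in the H3K36 list was Smyd2 (-0.36, limma adjusted p = 0.0432). In the H3K9 list 7 of 19 fell, 2 at the same total and 4 without WT 1, 0 without WT 2, 1 without H19Ter 3 and 2 without H19Ter 4, with Cbx1, which encodes HP1 beta, at 6.28 and 6.58 in WT and 5.76 and 5.70 in H19Ter (log2 fold change -0.70 ± 0.13, limma adjusted p = 0.00493). Falls in the H3K9 list were 36.8%, against 19.3% of all genes at their level. In Polycomb repressive complex 1, Phc2 rose (0.52, limma adjusted p = 0.00168) and its paralog Phc1 fell (-0.44, limma adjusted p = 0.00334). Chromatin remodellers had 18.6% rises and 16.3% falls, against 7.08% and 19.9% of all genes at their level. Of 43 chromatin remodellers 8 rose and 7 fell, of which 3 and 0 held with each library left out, and Chd3, a NuRD subunit, was at 5.74 and 5.74 in WT and 6.60 and 6.56 in H19Ter (log2 fold change 0.84 ± 0.11, limma adjusted p = 0.00115). The threshold was missed (limma adjusted p in brackets) by Zfp445 without WT 2, H19Ter 3 and H19Ter 4 (0.13, 0.0698 and 0.077) and Trim28 without WT 2 and H19Ter 4 (0.126 and 0.114). Calls ended (limma adjusted p in brackets) for Kdm1b without WT 2 (0.0504) and Setd2 without WT 2, H19Ter 3 and H19Ter 4 (0.164, 0.0574 and 0.129). The call was lost (limma adjusted p in brackets) for Smyd2 without WT 2, H19Ter 3 and H19Ter 4 (0.326, 0.231 and 0.0776) and Cbx1 without WT 2 (0.0601).

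The piRNA pathway, in which PIWI proteins and small RNAs guide methylation to transposons, held more rises than falls. In this list, 7 of 28 genes with a value rose, 5 fell and 16 did not pass, with a median of 0.14 against -0.08 over all genes at their level. With each library left out in turn, 4 of the rises and 2 of the falls still passed. Besides Dnmt3l, the rises included Spocd1, which links nuclear piRNAs to the methylation machinery, at 7.0 and 6.71 in WT and 7.65 and 7.55 in H19Ter (log2 fold change 0.75 ± 0.13, limma adjusted p = 0.0033). Tdrd9, a helicase of the MIWI2 granules, was at 8.04 and 7.86 in WT and 8.48 and 8.52 in H19Ter (log2 fold change 0.55 ± 0.10, limma adjusted p = 0.00387). Henmt1, which methylates the ends of piRNAs, was at 3.98 and 4.09 in WT and 4.54 and 4.71 in H19Ter (log2 fold change 0.59 ± 0.11, limma adjusted p = 0.0047). Piwil4, which encodes MIWI2 itself, was at 8.06 and 7.95 in WT and 8.44 and 8.52 in H19Ter (log2 fold change 0.47 ± 0.10, limma adjusted p = 0.00896). Both were chosen after their values were seen. In the other direction, Tdrd12, a Tudor protein of secondary piRNA production, was at 7.69 and 7.71 in WT and 7.23 and 7.32 in H19Ter (log2 fold change -0.43 ± 0.07, limma adjusted p = 0.00365). The chaperone gene Hsp90aa1 was at 11.38 and 11.46 in WT and 11.03 and 10.99 in H19Ter (log2 fold change -0.41 ± 0.06, limma adjusted p = 0.00136). Piwil2, which encodes MILI, did not pass (0.21, limma adjusted p = 0.0691) and was chosen after its values were seen. Leaving out single libraries ended the call (limma adjusted p in brackets) of Piwil4 without WT 2 and H19Ter 4 (0.087 and 0.0715).

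Of 28 germ cell RNA-binding proteins 4 rose and 10 fell, but without single libraries the rises and falls were 4 and 7 without WT 1, 4 and 2 without WT 2, 4 and 4 without H19Ter 3 and 4 and 5 without H19Ter 4. In the fit to all 7 libraries 14.3% of the list rose and 35.7% fell, against 8.78% and 18.3% of all genes at their level. Msi1, a Musashi translational regulator, was at 4.46 and 4.39 in WT and 5.56 and 5.50 in H19Ter (log2 fold change 1.11 ± 0.10, limma adjusted p = 0.000149). Its paralog Msi2 was at 7.56 and 7.48 in WT and 8.0 and 7.95 in H19Ter (log2 fold change 0.46 ± 0.08, limma adjusted p = 0.00307). Boll, a relative of Dazl, was at 4.36 and 4.26 in WT and 4.82 and 4.90 in H19Ter (log2 fold change 0.55 ± 0.08, limma adjusted p = 0.00228). Ddx25, a testis RNA helicase, was at 6.82 and 6.88 in WT and 7.27 and 7.35 in H19Ter (log2 fold change 0.46 ± 0.07, limma adjusted p = 0.0017). Dazl itself, which licenses germ cells, was at 9.98 and 10.18 in WT and 9.58 and 9.66 in H19Ter (log2 fold change -0.45 ± 0.09, limma adjusted p = 0.00597). Nanos2, which holds male germ cells off meiosis, was chosen after its values were seen and was at 5.82 and 5.89 in WT and 5.37 and 5.32 in H19Ter (log2 fold change -0.51 ± 0.17, limma adjusted p = 0.0481). Dnd1, its partner protein, was at 7.10 and 7.03 in WT and 6.70 and 6.52 in H19Ter (log2 fold change -0.45 ± 0.09, limma adjusted p = 0.00691). Calls were lost (limma adjusted p in brackets) for Dazl without WT 2 (0.0681) and Nanos2 without WT 1, WT 2, H19Ter 3 and H19Ter 4 (0.116, 0.224, 0.137 and 0.184). No call was left (limma adjusted p in brackets) for Dnd1 without H19Ter 4 (0.0682).

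Of 30 genes known from spermatogonia 8 rose and 8 fell, but with 1 library left out the rises and falls were 8 and 5 without WT 1, 6 and 1 without WT 2, 7 and 5 without H19Ter 3 and 6 and 1 without H19Ter 4. In the fit to all 7 libraries 26.7% of the list rose and 26.7% fell, against 11.4% and 14.9% of all genes at their level. Sohlh1, a bHLH factor of spermatogonial differentiation, was at 3.52 and 3.55 in WT and 4.27 and 4.37 in H19Ter (log2 fold change 0.78 ± 0.09, limma adjusted p = 0.000731). Thy1, a surface marker of undifferentiated spermatogonia, was at 1.42 and 0.84 in WT and 2.46 and 2.84 in H19Ter (log2 fold change 1.53 ± 0.23, limma adjusted p = 0.00189). Zbtb16, which encodes PLZF, was at 3.27 and 3.11 in WT and 3.94 and 3.93 in H19Ter (log2 fold change 0.75 ± 0.12, limma adjusted p = 0.00289). Bcl6b, a self-renewal factor, was at 3.18 and 3.05 in WT and 3.91 and 3.86 in H19Ter (log2 fold change 0.77 ± 0.14, limma adjusted p = 0.00449). Both were chosen after their values were seen. The falls included Lhx1, a LIM homeobox factor downstream of GDNF, at 5.10 and 5.45 in WT and 3.84 and 3.21 in H19Ter (log2 fold change -1.75 ± 0.29, limma adjusted p = 0.00331). Etv5 (-0.77, limma adjusted p = 0.00597) and the GDNF receptor gene Ret (-0.56, limma adjusted p = 0.00578), chosen after their values were seen, were also lower. Of 45 meiosis genes 8 rose and 7 fell, and 3 and 3 passed with each library left out in turn. The rises and falls were 17.8% and 15.6% of the meiosis list, against 11.9% and 14.0% of all genes at their level, and its median was 0.02. Mei1, needed for meiotic breaks, rose from a low level, at -0.71 and -0.50 in WT and 1.44 and 1.57 in H19Ter (log2 fold change 2.11 ± 0.25, limma adjusted p = 0.000831). Meiob, a single-strand binding protein of recombination, was at 0.28 and 0.60 in WT and 1.53 and 1.74 in H19Ter (log2 fold change 1.19 ± 0.19, limma adjusted p = 0.00241). Mnd1, a strand exchange cofactor, was at 4.53 and 4.59 in WT and 3.84 and 3.70 in H19Ter (log2 fold change -0.80 ± 0.12, limma adjusted p = 0.00246). Hormad2, an axis protein, was at 5.83 and 5.89 in WT and 5.34 and 5.34 in H19Ter (log2 fold change -0.52 ± 0.08, limma adjusted p = 0.00275). Stra8, the retinoic acid target that opens meiosis, did not pass (0.97, limma adjusted p = 0.0583) and was chosen after its values were seen. Single libraries decided the call (limma adjusted p in brackets) of Etv5 without WT 2 and H19Ter 4 (0.0678 and 0.0528) and Ret without WT 2 and H19Ter 4 (0.0588 and 0.0578).

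Retinoic acid pathway genes held 7 rises and 1 fall among 17, with a median of 0.33 against 0.05 over all genes at their level. Rises were 41.2% of the list, against 15.0% at their level. The rises numbered 5 without WT 1, 3 without WT 2, 3 without H19Ter 3 and 3 without H19Ter 4, and 4 over genes at a mean log2 CPM of at least 1. They were led by weakly expressed targets. Rarb, a receptor gene induced by retinoic acid, was at -1.28 and -1.12 in WT and 0.93 and 0.40 in H19Ter (log2 fold change 1.87 ± 0.34, limma adjusted p = 0.00474). Hoxb1, another direct target, was at -3.34 and -4.20 in WT and -0.58 and -0.31 in H19Ter (log2 fold change 3.32 ± 0.54, limma adjusted p = 0.00288), or 3 and 1 read pairs in WT and 34 and 30 in H19Ter. The fall was that of Rxrb, a partner receptor, at 5.50 and 5.63 in WT and 5.14 and 4.97 in H19Ter (log2 fold change -0.51 ± 0.13, limma adjusted p = 0.0167). Over the 16 Hox genes with a value, 8 rose and none fell, 4 of them with each library left out in turn, with a median of 1.0 against 0.42 over all genes at their level. Rises were 50% of the Hox list, against 19.2% of all genes at their level. Hoxb1, given above, is also one of these Hox genes. Hoxa3 was at 0.61 and 0.92 in WT and 2.25 and 2.31 in H19Ter (log2 fold change 1.51 ± 0.21, limma adjusted p = 0.00153). Hoxb4 was at -0.26 and -0.41 in WT and 1.04 and 1.27 in H19Ter (log2 fold change 1.49 ± 0.27, limma adjusted p = 0.00454), and these levels remained low. The threshold was missed (limma adjusted p in brackets) by Rxrb without WT 2 and H19Ter 4 (0.134 and 0.12).

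Among imprinted genes, 75.0% of those at the other paternal germline differentially methylated regions (gDMRs) rose, against 14.0% of all genes at their level. Of 8 such genes with a value 6 rose and none fell, 4 of them with each library left out in turn, with a median of 0.86. In the Dlk1-Meg3 domain, whose gDMR is methylated in the male germ line, the noncoding RNA Rian was at 5.95 and 5.75 in WT and 7.07 and 7.01 in H19Ter (log2 fold change 1.19 ± 0.13, limma adjusted p = 0.000461). The noncoding RNA Meg3 was at 4.45 and 4.14 in WT and 5.47 and 4.99 in H19Ter (log2 fold change 0.94 ± 0.15, limma adjusted p = 0.00269). Dlk1, which encodes a transmembrane ligand, was at 1.79 and 1.48 in WT and 3.24 and 2.67 in H19Ter (log2 fold change 1.32 ± 0.20, limma adjusted p = 0.00215). At the Rasgrf1 gDMR, the exchange factor gene Rasgrf1 was at 2.56 and 2.42 in WT and 3.26 and 3.29 in H19Ter (log2 fold change 0.79 ± 0.13, limma adjusted p = 0.0033). Every one of these 4 was higher in both H19Ter libraries than in either WT library. Mirg (0.60, limma adjusted p = 0.0154), the microRNA host of the Dlk1-Meg3 domain, and Gpr1 (1.13, limma adjusted p = 0.0391), next to another paternal gDMR, were chosen after their values were seen. Rian, Meg3, Dlk1 and Mirg lie in the same domain, so their rises do not stand for separate regions. Calls ended (limma adjusted p in brackets) for Mirg without WT 2, H19Ter 3 and H19Ter 4 (0.14, 0.0604 and 0.0942) and Gpr1 without WT 1, WT 2 and H19Ter 4 (0.0607, 0.194 and 0.224).

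Of 43 imprinted genes of maternal gDMRs 7 rose and 6 fell, of which 3 and 2 passed with each library left out in turn, with a median of -0.06 that was 0.02 with all libraries set to the same total. The rises and falls were 16.3% and 14.0% of this list, against 12.1% and 14.1% of all genes at their level. Grb10, an adaptor that restrains insulin signalling, was at 5.36 and 5.14 in WT and 6.62 and 6.69 in H19Ter (log2 fold change 1.40 ± 0.18, limma adjusted p = 0.001). Peg3, a zinc finger gene and the most abundant of the 4 with the smallest p, was at 8.80 and 8.91 in WT and 8.16 and 8.02 in H19Ter (log2 fold change -0.76 ± 0.07, limma adjusted p = 0.000145). Impact, a regulator of the kinase GCN2, was at 5.67 and 5.78 in WT and 4.60 and 4.75 in H19Ter (log2 fold change -1.05 ± 0.12, limma adjusted p = 0.000731). In the Peg10 domain, Ppp1r9a was at 5.43 and 5.21 in WT and 5.98 and 6.05 in H19Ter (log2 fold change 0.70 ± 0.09, limma adjusted p = 0.00129). Sgce, chosen after its values were seen, was at 3.26 and 2.72 in WT and 3.96 and 4.15 in H19Ter (log2 fold change 1.07 ± 0.19, limma adjusted p = 0.00387). In the distal chromosome 7 cluster near the insertion 4 of 18 rose and none fell, and the one that held with each library left out in turn was Tnfrsf23, a decoy receptor, at -1.13 and -0.75 in WT and 0.49 and 0.94 in H19Ter (log2 fold change 1.66 ± 0.30, limma adjusted p = 0.00453). Rises in the distal chromosome 7 cluster were 22.2%, against 14.5% of all genes at their level. Of the 6 H19/Igf2 domain genes with a value, Lsp1, an actin-binding protein gene, was at 1.08 and 1.02 in WT and 1.88 and 1.90 in H19Ter (log2 fold change 0.84 ± 0.17, limma adjusted p = 0.00728). The noncoding RNA Gm33148 was at 2.49 and 2.18 in WT and 1.68 and 1.67 in H19Ter (log2 fold change -0.66 ± 0.17, limma adjusted p = 0.0187). H19, the noncoding RNA of the domain, was at 5.48 and 5.52 in WT and 5.70 and 5.36 in H19Ter (log2 fold change 0.03 ± 0.12, limma adjusted p = 0.876), and neither it nor Igf2, Igf2os and Mrpl23 passed. The call was lost (limma adjusted p in brackets) for Lsp1 without WT 2 (0.0507) and Gm33148 without WT 1, H19Ter 3 and H19Ter 4 (0.101, 0.0723 and 0.0841).

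In protein and RNA production most genes did not pass, and falls outnumbered rises. Of 80 spliceosome and snRNP genes 1 rose and 23 fell, of 68 ribosome biogenesis genes 1 rose and 18 fell, and of 42 translation factors 2 rose and 12 fell. The falls were 28.7%, 26.5% and 28.6%, against 19.5%, 20.4% and 20.4% of all genes at their levels. The medians were -0.20, -0.14 and -0.13, against -0.10 over all genes at their level. In voom on the recovered read pairs 14, 12 and 8 of these genes fell. The falls of the spliceosome list numbered 21 without WT 1, 1 without WT 2, 4 without H19Ter 3 and 1 without H19Ter 4, those of ribosome biogenesis 16 without WT 1, 0 without WT 2, 3 without H19Ter 3 and 1 without H19Ter 4, and those of translation factors 9 without WT 1, 0 without WT 2, 2 without H19Ter 3 and 0 without H19Ter 4. With all libraries at the same total, 5 translation factors rose and 5 fell. Sf3b3, a subunit of the U2 particle, was at 9.87 and 9.94 in WT and 9.49 and 9.54 in H19Ter (log2 fold change -0.39 ± 0.06, limma adjusted p = 0.00241). Rrs1, a ribosome assembly factor, was at 5.58 and 5.73 in WT and 5.12 and 4.97 in H19Ter (log2 fold change -0.61 ± 0.11, limma adjusted p = 0.00451). Eef2k, the kinase that slows elongation, went the other way, at 3.15 and 3.26 in WT and 4.12 and 4.16 in H19Ter (log2 fold change 0.93 ± 0.11, limma adjusted p = 0.000709). The 21 host genes of small nucleolar RNAs had 12 falls and no rise, with a median of -0.45, but the number of falls was 12 without WT replicate 1, 0 without WT replicate 2, 2 without H19Ter replicate 3 and 1 without H19Ter replicate 4. Snhg4 was at 5.41 and 5.65 in WT and 5.12 and 4.95 in H19Ter (log2 fold change -0.49 ± 0.11, limma adjusted p = 0.0111). Falls were 57.1% of the host genes, against 14.8% of all genes at their level. The small nucleolar RNAs themselves mostly did not pass, with 0 rises and 2 falls of 62. Leaving out single libraries ended the call (limma adjusted p in brackets) of Rrs1 without WT 2 (0.0557) and Snhg4 without WT 2 and H19Ter 4 (0.117 and 0.093).

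Among 90 protein-coding genes of cytoplasmic ribosomal proteins 3 rose and 9 fell, with a median of -0.20 against -0.10 at their level. Of all genes at that level, 7.43% rose and 19.4% fell. Their pseudogenes had 11 rises and 5 falls among 104, with a median of -0.23 against 0.05 at their level. Of all genes at the level of the pseudogenes, 17.3% rose and 6.56% fell. The shares of rises and of falls in both lists were thus below those at their levels in the fit to all 7 libraries. Fitted to the WT and H19Ter libraries only, 6 coding genes rose and 41 fell, while 12 pseudogenes rose and 13 fell. Over all 20643 genes, 3069 rose and 3286 fell in that fit, so the reading for falls of the coding genes depends on the fit. Log2 fold changes in the coding list ran from -6.20 to 0.89. Rplp0, a protein of the ribosomal stalk, was at 8.99 and 9.08 in WT and 8.40 and 8.20 in H19Ter (log2 fold change -0.74 ± 0.08, limma adjusted p = 0.000528). Rpl26 rose, at 6.46 and 6.78 in WT and 7.64 and 7.38 in H19Ter (log2 fold change 0.89 ± 0.16, limma adjusted p = 0.00423). Rpl34 fell and was at 6.88 and 6.95 in WT and 6.16 and 5.93 in H19Ter (log2 fold change -0.87 ± 0.14, limma adjusted p = 0.00319). Among the pseudogenes, Rps13-ps1 was at -1.63 and -1.84 in WT and 4.79 and 4.66 in H19Ter (log2 fold change 6.46 ± 0.24, limma adjusted p = 1.26e-06), the largest rise among those of its list. Rpl3-ps1 was at 1.80 and 1.81 in WT and 5.52 and 6.15 in H19Ter (log2 fold change 4.03 ± 0.18, limma adjusted p = 1.53e-06). Such copies share sequence with the parent genes and with each other, and the counting mode of STAR named in the methods takes only pairs aligned to 1 place, so their values rest on the bases in which they differ and are uncertain.

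Of 55 heat shock proteins and cochaperones 3 rose and 21 fell, with a median of -0.19, and of 31 endoplasmic reticulum chaperones and unfolded protein response genes none rose and 11 fell, or 38.2% and 35.5% falls against 17.6% and 19.7% at their levels. The falls of the heat shock list numbered 13 without WT 1, 5 without WT 2, 8 without H19Ter 3 and 4 without H19Ter 4, and those of the other list 5 without WT 1, 2 without WT 2, 3 without H19Ter 3 and 1 without H19Ter 4, or 5 at the same total. Hspa8, the constitutive HSC70 gene, was at 11.26 and 11.27 in WT and 10.70 and 10.87 in H19Ter (log2 fold change -0.48 ± 0.07, limma adjusted p = 0.00202). Hsph1, a nucleotide exchange factor for it, was at 8.88 and 8.92 in WT and 8.54 and 8.57 in H19Ter (log2 fold change -0.34 ± 0.06, limma adjusted p = 0.00385). Ptges3, which encodes the HSP90 cochaperone p23, was at 8.37 and 8.45 in WT and 8.07 and 8.07 in H19Ter (log2 fold change -0.34 ± 0.06, limma adjusted p = 0.00405). Of 49 proteasome genes 13 fell and none rose, or 26.5% against 18.4% at their level, but the falls numbered 6 without WT 1, 0 without WT 2, 0 without H19Ter 3 and 0 without H19Ter 4, and 4 both in voom and at the same total. Psma1 had the smallest p (-0.44, limma adjusted p = 0.0125). Calls were lost (limma adjusted p in brackets) for Psma1 without WT 2, H19Ter 3 and H19Ter 4 (0.11, 0.0581 and 0.0795).

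Of 97 nuclear genes of oxidative phosphorylation 11 fell and none rose, with a median of -0.23, and of 77 mitochondrial ribosomal protein genes 13 fell and none rose. The shares of falls were 11.3% and 16.9%, against 16.1% and 16.4% of all genes at their level. Fitted to the WT and H19Ter libraries only, 41 genes of the first list and 28 of the second fell, and 0 and 1 rose. Over all 20643 genes, 3286 fell in that fit, so the number of falls in these lists depends on the fit. The falls numbered 5 without WT 1, 0 without WT 2, 3 without H19Ter 3 and 0 without H19Ter 4 in the first list and 5 without WT 1, 0 without WT 2, 2 without H19Ter 3 and 0 without H19Ter 4 in the second, and in voom on the recovered read pairs 2 genes of each list fell. None of the 21 genes of the mitochondrial genome passed in limma or in voom, and 1 had an unadjusted p under 0.05 in limma. In glucose metabolism 4 genes rose and 4 fell of 29, of which 1 and 2 held with each library left out. Rises and falls of the glucose list were 13.8% and 13.8%, against 11.6% and 14.6% of all genes at their level. Gapdh, the glycolytic dehydrogenase, was at 8.16 and 8.30 in WT and 7.30 and 7.33 in H19Ter (log2 fold change -0.91 ± 0.09, limma adjusted p = 0.000249). Tpi1, the isomerase before it, was at 4.11 and 4.11 in WT and 3.16 and 2.74 in H19Ter (log2 fold change -1.17 ± 0.19, limma adjusted p = 0.00265), and both have many pseudogene copies. Hk1, the hexokinase that starts the pathway, was at 3.54 and 3.24 in WT and 4.33 and 4.24 in H19Ter (log2 fold change 0.90 ± 0.14, limma adjusted p = 0.00216). In purine synthesis, Atic was at 6.85 and 6.97 in WT and 6.39 and 6.30 in H19Ter (log2 fold change -0.57 ± 0.10, limma adjusted p = 0.0035), while Prps2, which makes the ribose precursor, was at 0.31 and 0.26 in WT and 1.71 and 1.77 in H19Ter (log2 fold change 1.45 ± 0.19, limma adjusted p = 0.00108). Asns, which makes asparagine and is a target of ATF4, was at 5.99 and 6.09 in WT and 6.60 and 6.51 in H19Ter (log2 fold change 0.52 ± 0.08, limma adjusted p = 0.00223). The cystine transporter gene Slc7a11 was at 2.20 and 1.95 in WT and 2.92 and 3.16 in H19Ter (log2 fold change 0.96 ± 0.17, limma adjusted p = 0.00423).

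**Figure D3:**
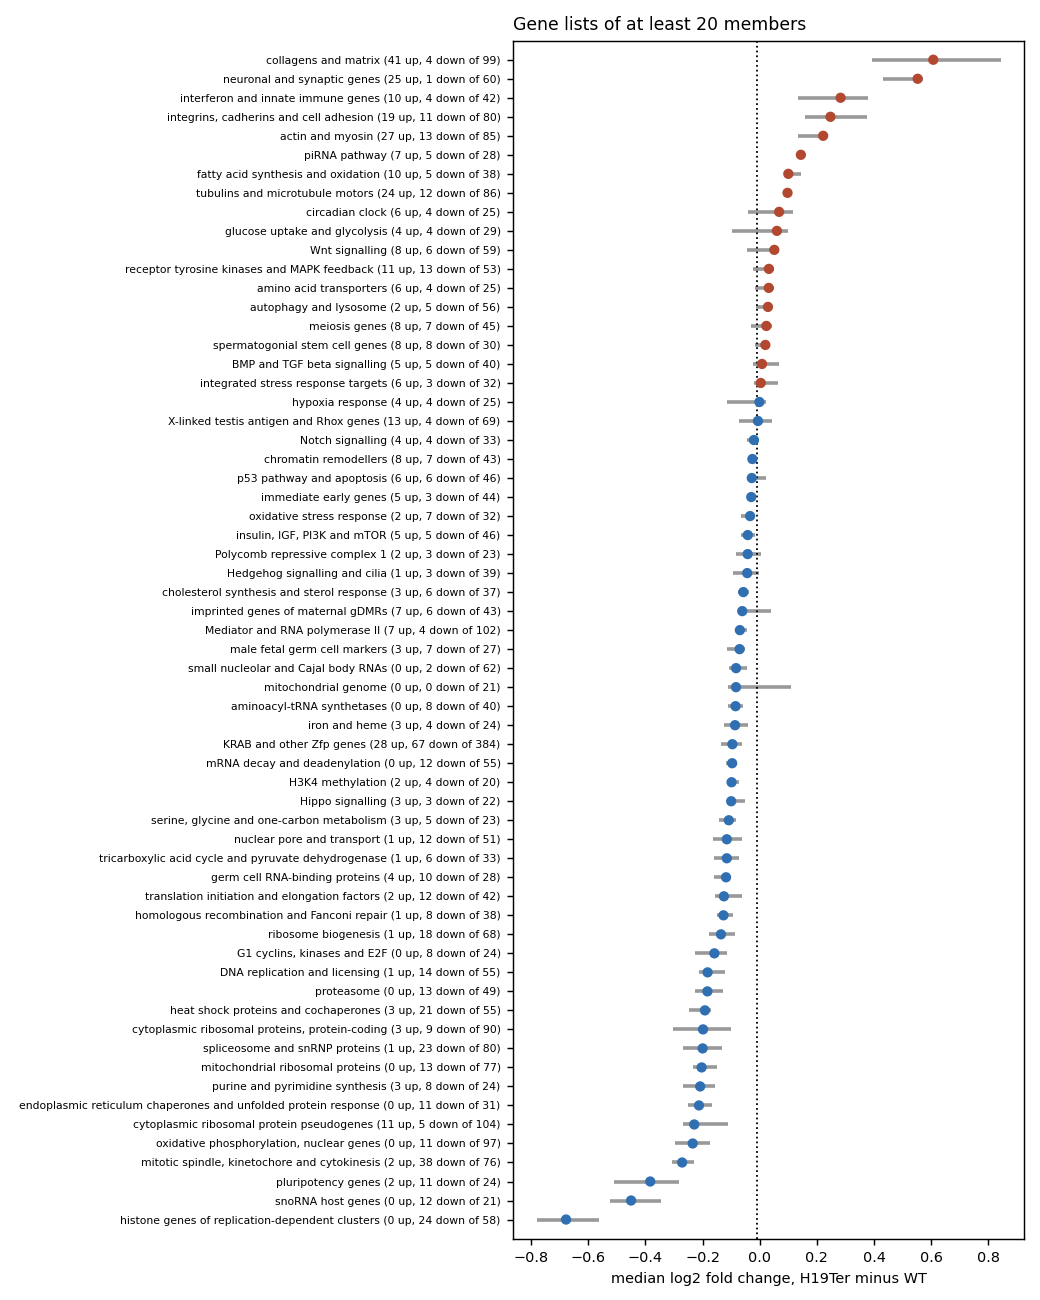
Median log2 fold change, H19Ter minus WT, of each gene list with at least 20 genes with a value (points, red above 0 and blue below), with the range over the 4 fits that leave out 1 library (grey bars), the median of all genes as a dotted line and the number of members called up or down in the labels. Cluster histone genes lie lowest, at -0.68, and collagens and matrix genes highest, at 0.61, with a range from 0.39 to 0.84.

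Genes of the extracellular matrix and of neurons had the highest medians of the lists with at least 20 genes. In the list of collagens and matrix genes, 41 of 99 genes with a value rose, 4 fell and 54 did not pass, with a median of 0.61 against 0.05 over all genes at their level. Rises were 41.4% of the list, against 15.5% at their level. With each library left out in turn 17 of the rises still passed, and the list had 30 without WT 1, 20 without WT 2, 18 without H19Ter 3 and 38 without H19Ter 4. Mmp2, a secreted matrix protease, was at 3.06 and 3.04 in WT and 4.40 and 4.36 in H19Ter (log2 fold change 1.33 ± 0.13, limma adjusted p = 0.00023). The laminin chain genes Lama1 and Lama5 were at 4.23 and 3.89 in WT and 5.34 and 5.31 in H19Ter (log2 fold change 1.27 ± 0.15, limma adjusted p = 0.000709) and at 4.04 and 4.0 in WT and 4.89 and 4.94 in H19Ter (log2 fold change 0.89 ± 0.10, limma adjusted p = 0.000562). Thbs2, a matricellular protein gene, was at -0.11 and -0.04 in WT and 1.89 and 1.52 in H19Ter (log2 fold change 1.78 ± 0.21, limma adjusted p = 0.000815). Lamb3, a laminin chain gene chosen after its values were seen, was at -1.06 and -1.27 in WT and 1.03 and 1.15 in H19Ter (log2 fold change 2.26 ± 0.31, limma adjusted p = 0.00144). The falls were Col9a1 (-1.29, limma adjusted p = 0.00344), Col6a3 (-0.55, limma adjusted p = 0.0364), Col24a1 (-0.52, limma adjusted p = 0.0455) and Nid2 (-0.48, limma adjusted p = 0.0393), all chosen after their values were seen. Its median was 0.39 without H19Ter replicate 3 and, without H19Ter replicate 4, 0.84. No call was left (limma adjusted p in brackets) for Col6a3 without WT 2, H19Ter 3 and H19Ter 4 (0.262, 0.101 and 0.163) and Col24a1 without WT 1, WT 2, H19Ter 3 and H19Ter 4 (0.111, 0.197, 0.119 and 0.175). Single libraries decided the call (limma adjusted p in brackets) of Nid2 without WT 1, WT 2, H19Ter 3 and H19Ter 4 (0.0544, 0.263, 0.099 and 0.188).

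Markers of interstitial and Leydig cells were highest in H19Ter replicate 3. The 19 interstitial and peritubular markers with a value summed to 499 and 498 CPM in WT and to 550 and 480 in H19Ter, and their median log2 fold change was 0.41, -0.10 without H19Ter replicate 3 and 0.92 without H19Ter replicate 4. Of these markers 1 rose and 1 fell. The rise was that of Pdgfrb, a receptor of stromal cells, at 1.79 and 1.59 in WT and 3.80 and 3.59 in H19Ter (log2 fold change 2.0 ± 0.18, limma adjusted p = 0.000136). The 11 Leydig cell markers summed to 75.4 and 78.7 CPM in WT and to 106 and 81.3 in H19Ter, with 1 rise, Thbs2. The 17 Sertoli cell markers summed to between 131 and 137 CPM in the 4 libraries, with 2 rises and 2 falls. Sox9, which directs Sertoli cell fate, was at 1.42 and 1.56 in WT and 2.87 and 2.91 in H19Ter (log2 fold change 1.40 ± 0.17, limma adjusted p = 0.00078). Amh, the Sertoli cell hormone, chosen after its values were seen, was at 2.08 and 1.73 in WT and 1.80 and 1.15 in H19Ter (log2 fold change -0.43 ± 0.30, limma adjusted p = 0.316). The 12 endothelial markers summed to between 83.4 and 89.3 CPM, with 2 rises and 2 falls. The 6 macrophage and leukocyte markers summed to between 6.6 and 10.2 CPM with 1 rise, the 4 erythroid markers to between 3.16 and 7 CPM with none, and the 10 mesonephros and epithelial markers to between 26.9 and 53.3 CPM with 3 rises and 1 fall. No marker with a value was at 0 in any of the 4 libraries. Their part in the rise of the matrix genes was not tested. Fewer cells of a type and less RNA per cell cannot be told apart in sorted bulk samples.

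In the neuronal and synaptic list, 25 of 60 genes with a value rose, 1 fell and 34 did not pass, with a median of 0.55 against 0.05 at their level. Rises were 41.7% of the list, against 16.3% at their level. The number of rises was 21 without WT 1, 9 without WT 2, 14 without H19Ter 3 and 13 without H19Ter 4. The fall was that of Syt11 (-0.55, limma adjusted p = 0.00865), chosen after its values were seen. Ank2, which encodes ankyrin-B, a membrane skeleton adaptor, was at 3.71 and 3.44 in WT and 5.38 and 5.32 in H19Ter (log2 fold change 1.77 ± 0.11, limma adjusted p = 1.37e-05). Cacna1c, the pore subunit of an L-type calcium channel, was at 2.03 and 1.65 in WT and 3.52 and 3.65 in H19Ter (log2 fold change 1.75 ± 0.14, limma adjusted p = 7.76e-05). Cntn1, an axonal adhesion protein gene, was at -0.76 and -0.29 in WT and 2.64 and 2.45 in H19Ter (log2 fold change 3.07 ± 0.29, limma adjusted p = 0.00023). Nrxn2, which encodes a presynaptic neurexin, was at 1.94 and 1.86 in WT and 3.21 and 3.10 in H19Ter (log2 fold change 1.26 ± 0.13, limma adjusted p = 0.000379). All 4 were higher in both H19Ter libraries than in either WT library. The medians of the list without H19Ter replicate 3 and without H19Ter replicate 4 were 0.43 and 0.54. The threshold was missed (limma adjusted p in brackets) by Syt11 without WT 2 and H19Ter 3 (0.0787 and 0.0626).

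Adhesion and cytoskeleton genes showed more rises than falls. Integrins, cadherins and other adhesion genes had 19 rises and 11 falls of 80, actin and myosin genes 27 and 13 of 85, and tubulins and microtubule motors 24 and 12 of 86. The shares of rises were 23.8%, 31.8% and 27.9%, against 15.9%, 12.3% and 11.0% at their levels, and with each library left out in turn 6, 9 and 11 rises and 0, 0 and 1 fall passed. The rises numbered 19 without WT 1, 7 without WT 2, 10 without H19Ter 3 and 9 without H19Ter 4 for adhesion, 22 without WT 1, 12 without WT 2, 10 without H19Ter 3 and 16 without H19Ter 4 for actin and myosin, and 19 without WT 1, 12 without WT 2, 18 without H19Ter 3 and 15 without H19Ter 4 for tubulins and motors. Cdh2, which encodes N-cadherin, was at 4.04 and 3.91 in WT and 4.68 and 4.78 in H19Ter (log2 fold change 0.76 ± 0.12, limma adjusted p = 0.003). Itga11, a collagen-binding integrin chain, was at 1.70 and 1.37 in WT and 3.34 and 2.84 in H19Ter (log2 fold change 1.56 ± 0.22, limma adjusted p = 0.00156). Tuba3b, a testis-type alpha tubulin gene, was at 5.24 and 5.04 in WT and 6.16 and 6.04 in H19Ter (log2 fold change 0.96 ± 0.09, limma adjusted p = 0.000249). Tubg2, a gamma tubulin, was at 3.75 and 3.78 in WT and 2.78 and 2.61 in H19Ter (log2 fold change -1.07 ± 0.14, limma adjusted p = 0.00122). Myo1c, a membrane-linked myosin, was at 4.03 and 3.97 in WT and 4.80 and 4.76 in H19Ter (log2 fold change 0.78 ± 0.10, limma adjusted p = 0.00116).

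Signalling lists held changes in both directions. In the Wnt list 13.6% rose and 10.2% fell, close to the 13.1% and 12.4% of all genes at their level. In the Notch list 12.1% rose and 12.1% fell, also close to the 13.7% and 11.9% at their level. Receptor tyrosine kinase and MAPK feedback genes had 20.8% rises and 24.5% falls, against 11.9% and 14.2%. Among 53 receptor tyrosine kinase and MAPK feedback genes 11 rose and 13 fell, but with 1 library left out the counts were 6 and 9 without WT 1, 6 and 1 without WT 2, 5 and 8 without H19Ter 3 and 6 and 1 without H19Ter 4. Ntrk3, the neurotrophin-3 receptor, was at 0.11 and -0.55 in WT and 2.02 and 2.10 in H19Ter (log2 fold change 2.28 ± 0.25, limma adjusted p = 0.000567). Met, the hepatocyte growth factor receptor, was at 4.72 and 4.52 in WT and 5.53 and 5.71 in H19Ter (log2 fold change 1.0 ± 0.15, limma adjusted p = 0.00189). Fgfr2, a fibroblast growth factor receptor, was at 5.21 and 5.46 in WT and 4.55 and 4.38 in H19Ter (log2 fold change -0.87 ± 0.13, limma adjusted p = 0.00231). Dusp4 (-1.09, limma adjusted p = 0.0245) and Dusp6 (-1.05, limma adjusted p = 0.037), phosphatases that feed back on ERK, were chosen after their values were seen. In the Wnt list, with 8 rises and 6 falls of 59 (2 and 1 with each library left out), Tcf7l2, a nuclear effector, was at 1.26 and 1.10 in WT and 2.70 and 2.59 in H19Ter (log2 fold change 1.46 ± 0.16, limma adjusted p = 0.000619). Lgr4, an R-spondin receptor, was at 6.46 and 6.77 in WT and 5.65 and 5.52 in H19Ter (log2 fold change -1.03 ± 0.16, limma adjusted p = 0.0026). In the Notch list, with 4 rises and 4 falls of 33 (1 and 2 with each library left out), the ligand gene Jag1 was at 3.42 and 3.42 in WT and 4.33 and 4.31 in H19Ter (log2 fold change 0.90 ± 0.12, limma adjusted p = 0.00138). Dll3, an inhibitory ligand gene, was at 2.92 and 3.17 in WT and 1.78 and 1.45 in H19Ter (log2 fold change -1.43 ± 0.21, limma adjusted p = 0.00183). Tead2, a DNA-binding partner of YAP, was at 3.34 and 3.07 in WT and 4.26 and 4.38 in H19Ter (log2 fold change 1.12 ± 0.12, limma adjusted p = 0.000527). Ltbp1, which stores latent TGF beta, was at 3.16 and 3.22 in WT and 4.0 and 4.50 in H19Ter (log2 fold change 1.06 ± 0.15, limma adjusted p = 0.00146). Calls ended (limma adjusted p in brackets) for Dusp4 without WT 1, WT 2 and H19Ter 4 (0.0673, 0.154 and 0.162) and Dusp6 without WT 1, WT 2, H19Ter 3 and H19Ter 4 (0.0895, 0.2, 0.0605 and 0.217).

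In the interferon and innate immune list 10 of 42 rose and 4 fell, with a median of 0.28 against 0.05 at their level, and of -0.01 over its genes at a mean log2 CPM of at least 1. Rises and falls were 23.8% and 9.52%, against 15.3% and 9.32% at their level. With each library left out in turn, 2 of the rises and 1 of the falls still passed. Tlr3, a receptor of double-stranded RNA, was at 1.42 and 1.24 in WT and 2.77 and 2.51 in H19Ter (log2 fold change 1.31 ± 0.20, limma adjusted p = 0.00198). Stat3, a cytokine signal transducer, was at 5.31 and 5.40 in WT and 5.91 and 5.97 in H19Ter (log2 fold change 0.59 ± 0.10, limma adjusted p = 0.00282). Of 44 immediate early genes, which often rise during dissociation, 5 rose and 3 fell (2 and 0 with each library left out), among them Socs3 at 0.50 and 0.39 in WT and 1.75 and 2.20 in H19Ter (log2 fold change 1.53 ± 0.21, limma adjusted p = 0.00142). The immediate early list had 11.4% rises and 6.82% falls, below the 14.3% and 11.0% of all genes at their level. In the circadian list, Hlf, a PAR bZIP factor, was at 3.87 and 4.24 in WT and 2.67 and 2.93 in H19Ter (log2 fold change -1.25 ± 0.18, limma adjusted p = 0.0017). The strain-variable list held 33.3% falls and 0% rises, against 13.2% and 12.8% of all genes at their level. At the same total for every library 2 of its genes fell and 1 rose. Whether strain background contributed was not tested. Of 18 genes listed as variable between mouse strains none rose and 6 fell, and none of the 6 passed with each library left out in turn.

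Of X-linked testis antigen and Rhox genes 13 rose and 4 fell among 69, or 18.8% rises against 15.3% of all genes at their level, with a median of -0.01. The rises numbered 10 without WT 1, 3 without WT 2, 8 without H19Ter 3 and 3 without H19Ter 4, and 3 rises and 2 falls passed with each library left out in turn. Nxf2, an RNA export factor gene of germ cells, was at 7.87 and 7.87 in WT and 8.32 and 8.47 in H19Ter (log2 fold change 0.52 ± 0.07, limma adjusted p = 0.001). Magea4, a melanoma antigen family gene, was at -1.36 and -1.12 in WT and 0.39 and 0.48 in H19Ter (log2 fold change 1.68 ± 0.25, limma adjusted p = 0.00196). Mageb4 of the same family was at 4.84 and 4.71 in WT and 5.40 and 5.55 in H19Ter (log2 fold change 0.70 ± 0.12, limma adjusted p = 0.00405).

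The largest rises among protein-coding genes at a mean log2 CPM of at least 3 had log2 fold changes of 1.52 to 2.77. The first was Ipp (ENSMUSG00000028696, chromosome 4 from 116507549 to 116538243), a Kelch protein gene named for its promotion by an intracisternal A particle, at 3.16 and 3.37 in WT and 5.91 and 6.16 in H19Ter (log2 fold change 2.77 ± 0.12, limma adjusted p = 1.53e-06). In H19Ter+neo it was at 3.10, 2.91 and 2.96, below both WT libraries, and the mutants differed in a test of that difference (limma adjusted p = 4.25e-07). Between the mutants 5717 of 20643 genes, or 27.7%, passed that test. Hunk, a kinase gene, was at 2.53 and 2.62 in WT and 4.82 and 4.08 in H19Ter (log2 fold change 1.87 ± 0.25, limma adjusted p = 0.0012), with 4.80, 4.55 and 4.08 in H19Ter+neo. Tle6, which encodes a protein of the maternal complex of oocytes, was at 2.96 and 2.71 in WT and 4.40 and 4.35 in H19Ter (log2 fold change 1.53 ± 0.16, limma adjusted p = 0.000349), with 4.23, 4.65 and 4.69 in H19Ter+neo. Epb41l1, a membrane skeleton protein gene, was at 4.32 and 4.23 in WT and 5.95 and 6.0 in H19Ter (log2 fold change 1.71 ± 0.13, limma adjusted p = 4.49e-05), with 5.06, 4.89 and 5.34 in H19Ter+neo, a smaller rise (limma adjusted p of the difference = 0.000591). Pgbd5, derived from a piggyBac transposase, was at 2.07 and 2.33 in WT and 4.03 and 3.86 in H19Ter (log2 fold change 1.74 ± 0.14, limma adjusted p = 6.52e-05), with 4.21, 4.48 and 4.45 in H19Ter+neo (limma adjusted p of the difference = 0.0259). Apart from Nlrp14 and Ank2 above, the other rises were Sspo (1.78), Eif3j2 (1.75), Lrrc27 (1.74), Crtam (1.65) and Hydin (1.52). Eif3j2 has a near-identical paralog, so its value rests on the bases that differ and is uncertain. Each of the 12 passed with every library left out in turn, and all but Ipp were higher than WT in H19Ter+neo too, which is measured against the same WT libraries.

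The largest falls by the same rule had log2 fold changes of -2.19 to -1.71. Eps8l1, an actin regulator gene, was at 6.10 and 5.98 in WT and 3.50 and 4.20 in H19Ter (log2 fold change -2.19 ± 0.47, limma adjusted p = 0.00976), with 2.59, 4.37 and 2.69 in H19Ter+neo. Noct (ENSMUSG00000023087, chromosome 3 from 51224447 to 51251644), a rhythmic phosphatase gene called nocturnin, was at 7.48 and 7.47 in WT and 5.28 and 5.38 in H19Ter (log2 fold change -2.14 ± 0.10, limma adjusted p = 2.15e-06), with 5.71, 5.40 and 5.42 in H19Ter+neo. Myo7a, an unconventional myosin gene, was at 7.16 and 7.18 in WT and 5.46 and 4.71 in H19Ter (log2 fold change -2.09 ± 0.54, limma adjusted p = 0.0196), with 5.73, 6.21 and 4.02 in H19Ter+neo. Retsat, the retinol saturase gene, was at 6.30 and 6.12 in WT and 4.78 and 4.02 in H19Ter (log2 fold change -1.81 ± 0.21, limma adjusted p = 0.00075), with 4.55, 4.95 and 4.56 in H19Ter+neo. Kndc1, a Ras exchange factor gene, was at 5.58 and 5.73 in WT and 4.02 and 3.63 in H19Ter (log2 fold change -1.83 ± 0.14, limma adjusted p = 5.29e-05), with 3.56, 3.32 and 3.39 in H19Ter+neo (limma adjusted p of the difference between the mutants = 0.0375). Baiap2l1, a membrane-bending adaptor gene, was at 7.72 and 7.81 in WT and 6.02 and 6.02 in H19Ter (log2 fold change -1.74 ± 0.14, limma adjusted p = 8.16e-05), with 6.33, 5.77 and 6.16 in H19Ter+neo. Trim12a, a TRIM gene also on the list of strain-variable genes, was at 4.63 and 4.80 in WT and 2.61 and 2.51 in H19Ter (log2 fold change -2.16 ± 0.58, limma adjusted p = 0.0233), with 3.54, 3.85 and 1.47 in H19Ter+neo. The rest were Lefty1, Lefty2 and Lhx1, described above, and Mid1 (-1.73, limma adjusted p = 0.000537) and Cpsf4l (-1.71, limma adjusted p = 0.00105). All 12 were below WT in H19Ter+neo too. The call was lost (limma adjusted p in brackets) for Eps8l1 without WT 2 and H19Ter 3 (0.0682 and 0.0724) and Myo7a without WT 1, WT 2 and H19Ter 4 (0.0725, 0.116 and 0.131). Leaving out single libraries ended the call (limma adjusted p in brackets) of Trim12a without WT 1, WT 2, H19Ter 3 and H19Ter 4 (0.0741, 0.139, 0.0873 and 0.109).

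**Figure D4:**
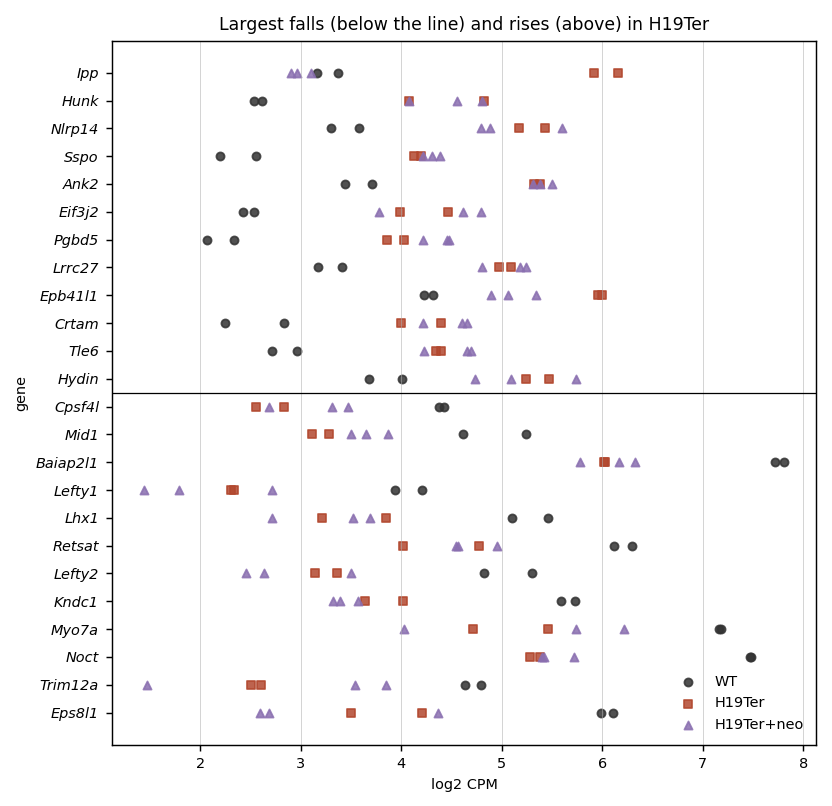
Log2 CPM of the 12 largest rises (above the line) and the 12 largest falls (below it) among protein-coding genes at a mean log2 CPM of at least 3, with 1 point for each WT (circles, n = 2), H19Ter (squares, n = 2) and H19Ter+neo library (triangles, n = 3). The H19Ter points of Ipp lie apart from all other libraries, and for the other genes the H19Ter+neo points lie on the same side of WT as the H19Ter points.

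Among long noncoding RNAs with a mean log2 CPM of at least 1, Neat1, the RNA scaffold of paraspeckles, was at 3.24 and 3.07 in WT and 5.82 and 3.66 in H19Ter (log2 fold change 1.58 ± 0.49, limma adjusted p = 0.0394), and the H19Ter libraries differed from each other by more than the fold change. The largest fall among these RNAs was 2410004I01Rik, at 4.72 and 4.87 in WT and 2.82 and 2.76 in H19Ter (log2 fold change -2.0 ± 0.27, limma adjusted p = 0.00136). Of processed pseudogenes 139 rose and 52 fell, and 66 of the rises and 5 of the falls passed with each library left out in turn. After Rps13-ps1, the next largest rise was that of Gm5869, at -1.13 and -1.96 in WT and 3.71 and 3.83 in H19Ter (log2 fold change 5.31 ± 1.05, limma adjusted p = 0.00684). Rps3a3 was at -0.71 and -0.29 in WT and 3.31 and 4.75 in H19Ter (log2 fold change 4.53 ± 0.61, limma adjusted p = 0.00126). Of small nucleolar RNAs, Snord72 fell (-0.69, limma adjusted p = 0.0219). Rises from 0 read pairs in both WT libraries to some in both H19Ter libraries were seen for 21 genes and the reverse for 2. Every gene of the table reached 0.1 CPM in at least 2 libraries, and more libraries are mutant than WT. A gene silent in WT could thus enter through mutant libraries, and the part of this in the imbalance was not tested. Calls were lost (limma adjusted p in brackets) for Neat1 without WT 1, WT 2 and H19Ter 3 (0.105, 0.195 and 0.0849) and Gm5869 without WT 2 (0.0684). No call was left (limma adjusted p in brackets) for Snord72 without WT 2 and H19Ter 4 (0.154 and 0.133).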

How the data were processed

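Directional, rRNA-depleted total RNA libraries of sorted prospermatogonia (2 WT, 2 H19Ter and 3 H19Ter+neo) were sequenced as read pairs. The table deposited by the authors holds log2 CPM with library scaling factors and a prior count, from which whole read pairs were recovered for every value (tolerance 1e-06), and the submitters' processing notes name Trim Galore 0.6.0, STAR 2.7.8, deepTools, edgeR and mm10. How the counting used strand, and the annotation release behind it, is not given in the sources, so reads of overlapping antisense genes may not be separated. Symbols and types came from the table and from GENCODE vM21 for 20615 of 20643 gene IDs.

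The deposited log2 values were fitted in limma 3.58.1 (R 4.3.3) with genotype as the factor over all 7 libraries and a mean-variance trend, two-sided, with Benjamini-Hochberg adjustment over all genes. A minimum of 0.1 CPM in 2 libraries left every gene in. Counts of calls were computed from this fit, and gene lists are described by counts and medians with no test. The members and the 86 lists were chosen with earlier results of these data known, and 4 sublists (histones and ribosomal proteins) were added after the values were seen. Named genes were the 12 largest rises and 12 largest falls among protein-coding genes at a mean of at least 3 with no overlap between WT and H19Ter, up to 4 members of each list by smallest p, the 3 largest rises and 3 largest falls of each other gene type, and the H19/Igf2 domain genes. All comparisons share the WT libraries.

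Alternatives left out each library in turn, used 2 genotypes only, other filters, pseudocounts and scalings, no trend, voom on the recovered read pairs, a minimum change of 1.5-fold, thinned libraries, and removal of GC and length trends. On simulated data for H19Ter against WT over 20643 genes, the fit recovered 73.1% of changes of 1.5-fold, 92.5% of 2-fold and 100% of 4-fold, with 6.35% of 189 calls false. The changes were placed only in genes above a minimum mean of read pairs, and all genes were drawn with a common dispersion. Recovery among weakly expressed genes was therefore not measured. Whether the rate of false calls holds for the real spread was not tested.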

Additional observations from a re-analysis of the deposited data

How the results depend on the processing

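No paired analysis was possible because WT, H19Ter and H19Ter+neo libraries share no replicate number. The counts of 2914 rises and 2273 falls ranged from 1102 to 2409 rises and from 306 to 1368 falls with 1 library left out. Settings that moved a count by over 1.5 times were limma without a trend (2004 rises, 854 falls), voom on read pairs (1690 and 1402), a mean log2 CPM of at least 1 (1792 rises of 14205 genes), a tested change of at least 1.5-fold (325 and 36), and the same total for every library (1308 falls). Rises made up 72.6% of calls at the same total, 65.8% with median ratios, 51.0% after removal of GC and length trends, 48.3% with 2 genotypes only, 46.0% at a mean log2 CPM of at least 1, 90.0% at a tested change of at least 1.5-fold and 63.8% to 78.3% (without WT 2) with 1 library left out, against 56.2% as reported. Of 424 named genes 383 were called and 177 of these also passed with each library left out in turn, and none was called in the opposite direction under an alternative. Of 88 lists with at least 5 genes 54 kept the sign of their median in every setting. The depth of 37.5 to 51.2 M read pairs limits genes under a log2 CPM of 0, where single libraries hold few reads.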
